A study of Mus musculus with 8 samples.

Results

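Sox5, Sox6 and Sox9, which encode the transcription factors of cartilage formation, and Acan, Vcan, Hapln1 and Comp, which encode matrix proteins found in cartilage, were followed as a set of 7 genes among the 18605 genes of the table. All 7 were found by symbol, and they were chosen from measured values of these libraries, so their differences are given as descriptions without p-values of their own. The cells were C3H10T1/2, a mouse mesenchymal line derived from C3H embryos that can form bone, fat or cartilage cells in culture. RNA was sequenced from 4 groups of 2 libraries. NC was the non-target control line without osteogenic induction (0 days), NC-7d was the same control after 7 days of induction, KD-Nap1l2 was labelled as knockdown of Nap1l2 without induction, and KD-Nap1l2-7d was labelled as that knockdown after 7 days of induction. The study's methods describe shRNAs carried by lentivirus and an osteogenic medium with dexamethasone, ascorbic acid and beta-glycerophosphate, a recipe for bone rather than cartilage. Every group shared the line. All groups derive from 1 line, and no label says whether the 2 libraries of a group came from separate cultures, so the spread between them may be technical.

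In cartilage, SOX9 switches on the genes of the chondrocyte matrix, and SOX5 and SOX6, which are close relatives of each other, bind beside it and strengthen its action. Aggrecan, the product of Acan, is the large chondroitin sulphate proteoglycan of cartilage. Versican, from Vcan, is its relative in looser connective tissue. Both bind hyaluronan, and link protein, from Hapln1, holds that bond in place. COMP is a pentameric thrombospondin that bridges collagens and other matrix proteins in cartilage and tendon.

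Totals ran from 17420284 to 19427359 counts per library. Nap1l2, the gene named as the target, was read so rarely that it does not check the labels. Its counts were 3 and 3 in NC, 2 and 7 in the libraries labelled KD-Nap1l2, 15 and 5 in NC-7d, and 7 and 13 in the libraries labelled KD-Nap1l2-7d. Both knockdown groups overlapped or exceeded their controls, and the fitted log2 fold change before induction was 0.64 ± 0.98 (SE), higher in the knockdown. The label KD-Nap1l2 is therefore used below only as a name. Of 10 mesenchymal fibroblast markers 8 stood at 1 FPKM or more in every library, and the list summed to 4836 to 5174 FPKM in NC, 5010 to 7034 in KD-Nap1l2, 2871 to 4211 in NC-7d and 2830 to 3232 in KD-Nap1l2-7d. The summed level of the adipocyte list was higher with induction, going from 28.4 to 30.7 FPKM in NC and 36.3 to 48.9 in KD-Nap1l2 to 174 to 209 in NC-7d and 173 to 224 in KD-Nap1l2-7d. Fabp4 carried most of that sum, at 10.1 and 7.69 FPKM in NC and 165 and 139 in NC-7d. Fabp4 and Pparg rose over 7 days in control and knockdown libraries, Cebpa fell in the knockdown libraries, Adipoq was not called, and Plin1, Cfd, Cidec and Lep were under 10 counts in every library. The median log2 fold change of the 4 tested genes of the list was 0.08 for NC-7d against NC. The chondrocyte list, which holds Acan and no other member, summed to 8.31 to 12.7 FPKM in NC, 22.8 to 37.7 in KD-Nap1l2, 8.76 to 10.3 in NC-7d and 7.16 to 7.42 in KD-Nap1l2-7d. The table held 9 of its genes, and 3 stood at 1 FPKM or more in every library. Acan and Snorc were under 10 counts in every library, while Col2a1 had 98 to 582 counts and Cnmd 2 to 643. Cnmd, at 25.1 and 12 FPKM, and Col2a1, at 6.10 and 6.29, carried most of the sum in KD-Nap1l2. For KD-Nap1l2 against NC, 3 of the 7 tested genes of the list were higher and 4 lower. Their median log2 fold change was -0.07. The part of these lists in the results that follow was not tested. Leukocyte, endothelial and epithelial lists summed to at most 9.41, 2.75 and 2.76 FPKM, and the osteoblast list to 4.86 to 20.8.

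The 7 genes spanned the whole range of expression. By FPKM, which corrects counts for transcript length and library size, Sox9 had a mean of 74.2 over the 8 libraries and was above 94.5% of the genes in the table. Vcan followed at 56.7 FPKM, above 92.5%. Comp at 2.47, Sox6 at 1.23 and Sox5 at 0.36 FPKM were above 44.5%, 39.9% and 32.9% of genes. Acan had a mean of 0.0075 and Hapln1 of 0.005 FPKM, with 8 and 4 counts in all libraries together. Sox9 and Vcan overlapped in level, from 57.9 to 111 FPKM and from 33.1 to 89.5 FPKM. Sox9 was above Vcan in each of the 4 libraries taken at 0 days, and below it in 3 of the 4 taken at 7 days, the exception being KD-Nap1l2-7d replicate 2. Comp (1.80 to 3.51), Sox6 (0.58 to 1.67) and Sox5 (0.10 to 0.56 FPKM) did not overlap each other.

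**Figure D1:**
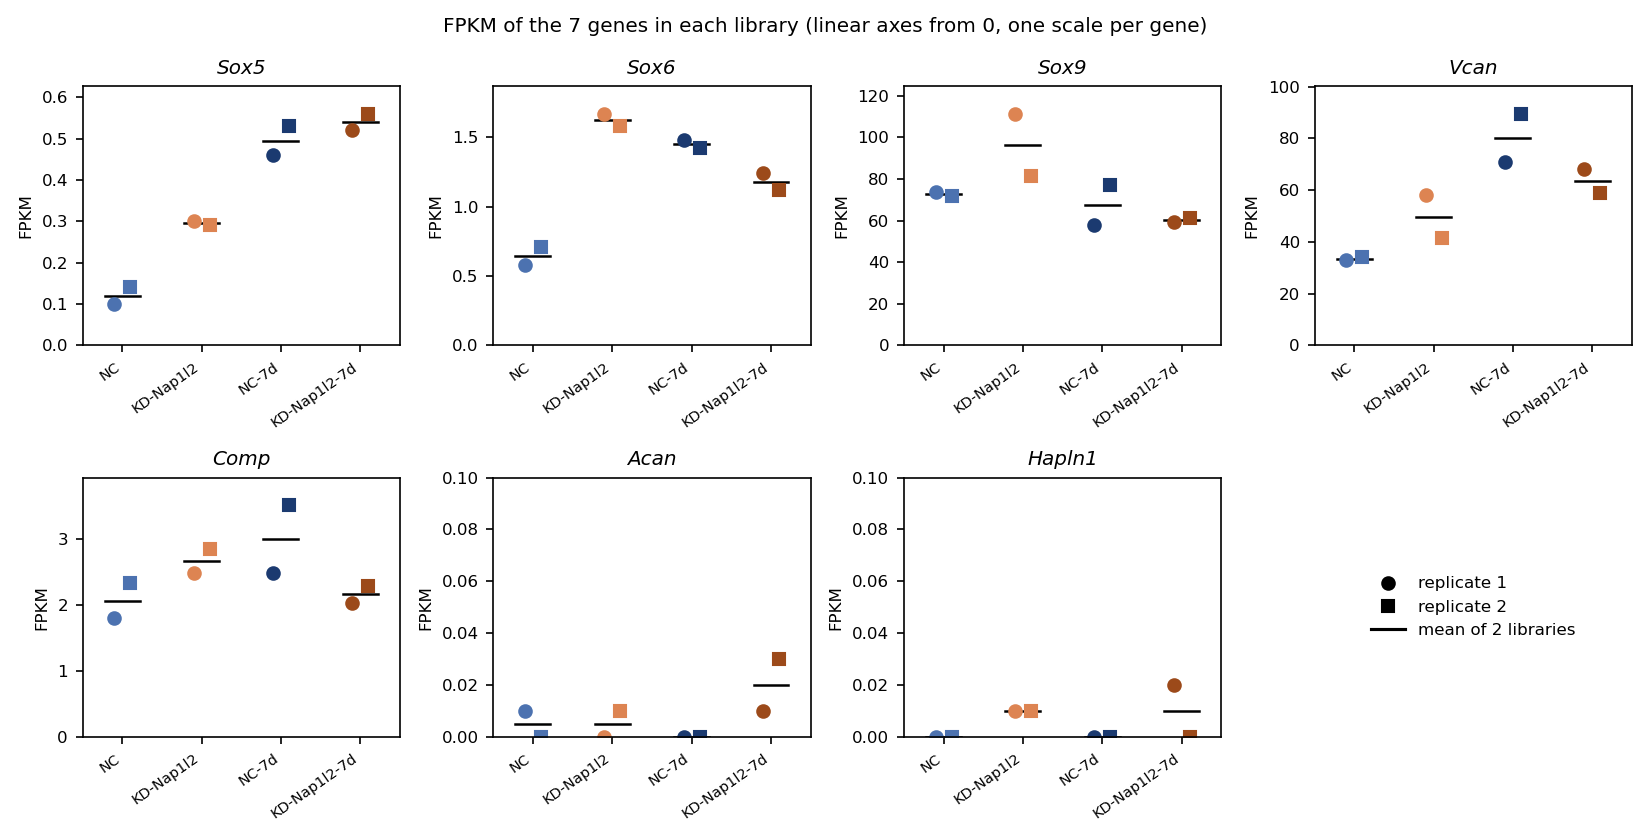
FPKM of each of the 7 genes (vertical axes, linear and starting at 0, with a separate scale for each gene) in the 4 groups (horizontal axes); circles are replicate 1, squares replicate 2 and bars the mean of 2 libraries. Sox5 and Sox6 were lowest in both NC libraries, Vcan was highest in NC-7d replicate 2, and Acan and Hapln1 did not exceed 0.03 FPKM.

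Sox5 and Sox6 had the widest spread over the 8 libraries among the members tested. The root mean square deviation of their log2 counts, scaled for library size, was 0.788 and 0.528, beside 0.485 for Vcan. The order of the members by size of change differed between comparisons. Sox6 lies on chr7:115470872-116040776 of GRCm38.p6 on the minus strand. It had 86 and 120 counts in NC, 245 and 239 in KD-Nap1l2, 222 and 229 in NC-7d, and 193 and 164 in KD-Nap1l2-7d. Both NC libraries were thus below the other 6, and KD-Nap1l2-7d lay below NC-7d without overlap. The fitted fold was 2.48 for KD-Nap1l2 against NC (log2 1.31 ± 0.20, SE), 2.32 for NC-7d against NC (log2 1.21 ± 0.20), -0.33 ± 0.19 on the log2 scale for KD-Nap1l2-7d against NC-7d and -0.42 ± 0.19 for KD-Nap1l2-7d against KD-Nap1l2.

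Sox5, on chr6:143828425-144782287 (minus strand), was read at a low level. It had 15 and 21 counts in NC, 37 and 38 in KD-Nap1l2, 60 and 72 in NC-7d, and 67 and 73 in KD-Nap1l2-7d. The levels rose in the order NC, KD-Nap1l2 and the 2 induced groups, and the induced groups overlapped. Against NC the fitted fold was 2.19 in KD-Nap1l2 (log2 1.13 ± 0.30) and 3.85 in NC-7d (log2 1.94 ± 0.29). KD-Nap1l2-7d stood 1.89-fold above KD-Nap1l2 (log2 0.92 ± 0.27) and differed from NC-7d by 0.10 ± 0.26 on the log2 scale.

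Sox9, on chr11:112782210-112787757 (plus strand), followed another order. Its counts were 5756 and 5846 in NC, 8282 and 6231 in KD-Nap1l2, 4216 and 5995 in NC-7d, and 4479 and 4504 in KD-Nap1l2-7d. KD-Nap1l2 replicate 1 was the highest library, and the NC-7d libraries lay on either side of the NC libraries by counts. The log2 fold change was 0.39 ± 0.17 for KD-Nap1l2 against NC, -0.16 ± 0.17 for KD-Nap1l2-7d against NC-7d and -0.12 ± 0.17 for NC-7d against NC. In the knockdown libraries it was 1.59-fold lower at 7 days than at 0 days (log2 -0.67 ± 0.17).

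The relatives of these factors gave a background for their levels. Sox13, the third member of the group formed with Sox5 and Sox6, was at 2.47 and 2.28 FPKM in NC and 0.78 and 1.67 in NC-7d. Sox4, a factor of many progenitor cells, was the highest other family member tested, at 42.0 and 40.9 FPKM in NC and 83.2 and 60.9 in NC-7d. Sox8 and Sox10, the close relatives of Sox9, reached at most 0.04 and 0.14 FPKM. The table held 13 other SOX genes, 3 of which were tested (Sox4, Sox12 and Sox13), and edgeR called none of them with all 8 libraries. For NC-7d against NC, Sox4 was called by DESeq2, without the filter on low counts, and without NC-7d replicate 2 or either KD-Nap1l2 library, and Sox13 without NC-7d replicate 2.

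The products of Sox5 and Sox6 bind short motifs related to ACAAT. The sequences upstream of these genes are shown because the pair had the widest spread over the 8 libraries among the members tested. Each is the 250 bases before an annotated start in RefSeq on GRCm38.p6, written 5′ to 3′ on the strand of the gene. Capitals mark ACAAT or ACAAAG on either strand (ATTGT or CTTTGT). The Sox5 window is chr6:143947107-143947356 and the Sox6 window chr7:116031048-116031297, the start of Sox6 with the highest GC content among the 6 listed.
Sox5: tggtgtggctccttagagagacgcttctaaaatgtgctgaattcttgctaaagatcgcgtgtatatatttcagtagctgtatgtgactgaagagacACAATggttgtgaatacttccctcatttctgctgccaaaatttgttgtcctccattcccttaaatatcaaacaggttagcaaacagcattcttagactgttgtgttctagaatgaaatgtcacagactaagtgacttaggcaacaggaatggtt
Sox6: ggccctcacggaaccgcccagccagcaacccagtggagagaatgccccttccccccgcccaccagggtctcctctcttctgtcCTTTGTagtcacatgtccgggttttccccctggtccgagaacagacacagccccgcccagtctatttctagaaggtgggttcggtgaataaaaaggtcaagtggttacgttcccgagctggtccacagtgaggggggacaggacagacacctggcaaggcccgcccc
The Sox5 window held 1 ACAAT match, 154 bases before the start, and 39.6% GC. The Sox6 window held 1 CTTTGT match, 167 bases before the start, and 60.8% GC. The windows of the other listed Sox6 starts held 0 to 3 matches to ACAAT and 0 to 2 to ACAAAG. Matches to ACAAT were found in 27.7% of all 32851 promoter windows of the same length and matches to ACAAAG in 16.5%, so either match is common. Both windows shown lie inside the bounds of their genes, before starts that are not the first.

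Vcan was the most highly expressed of the 4 matrix genes. The gene lies on chr13:89655309-89743027 (minus strand), and its nearest protein-coding neighbour, Hapln1, ends 43.5 kb away. Vcan had 5655 and 6158 counts in NC, 9178 and 6714 in KD-Nap1l2, 11476 and 15280 in NC-7d, and 11639 and 9520 in KD-Nap1l2-7d. Both induced groups were above both uninduced groups in every library. The fold was 2.38 for NC-7d against NC (log2 1.25 ± 0.18) and 1.41 for KD-Nap1l2 against NC (log2 0.50 ± 0.17). Between the knockdown groups, 7 days against 0 days gave a log2 fold change of 0.44 ± 0.17. KD-Nap1l2-7d lay 0.32 ± 0.17 below NC-7d on the log2 scale when normalised for library size.

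Vcan is spliced into forms that differ in 2 large exons coding for the stretches that carry chondroitin sulphate chains. These are the alpha exon, with 2880 coding bases at chr13:89702918-89705797, and the beta exon, with 5217 at chr13:89688285-89693501. The table listed 7 Vcan transcripts, of which 5 were matched to these exons through GENCODE and 2 predicted RefSeq models were not. The form with only the beta exon, V1, took 38.9 to 50.2% of the summed FPKM of the gene. V0, with both exons, took 9.64 to 12.9%. V2, with the alpha exon alone, was listed at 0 in 6 libraries and took at most 1.55% in the others. The predicted models took 25.9 to 41.6%, so the exon content of that share is not given.

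The forms with neither large exon, which include V3, varied most with the group. Their summed level was 1.93 and 0.59 FPKM in NC and 6.04 and 5.25 in KD-Nap1l2. It was 1.40 and 2.32 in NC-7d and 1.01 and 1.84 in KD-Nap1l2-7d. Both KD-Nap1l2 libraries stood above the other 6. As a share of Vcan this was 11.5 ± 1.63% (SD, n = 2) in KD-Nap1l2 against 3.78 ± 2.90% in NC, 2.29 ± 0.43% in NC-7d and 2.31 ± 1.17% in KD-Nap1l2-7d. The higher sum came from 1 transcript, at 5.78 and 5.11 FPKM in KD-Nap1l2 and 0.22 to 1.86 in the other libraries. The other transcript with neither exon was not higher, at 0.26 and 0.14 in KD-Nap1l2 and 0.34 and 0.37 in NC. V1 went from 14.4 ± 0.62 FPKM in NC to 36.7 ± 6.71 in NC-7d, beside 21.7 ± 1.32 in KD-Nap1l2 and 29.9 ± 2.14 in KD-Nap1l2-7d. With 2 libraries a group, an exact two-sided permutation test could not go below 0.333, and no test was made of these estimates, which assign shared reads to forms by a model. In bulk RNA, fewer cells of a type and less RNA per cell cannot be told apart.

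**Figure D2:**
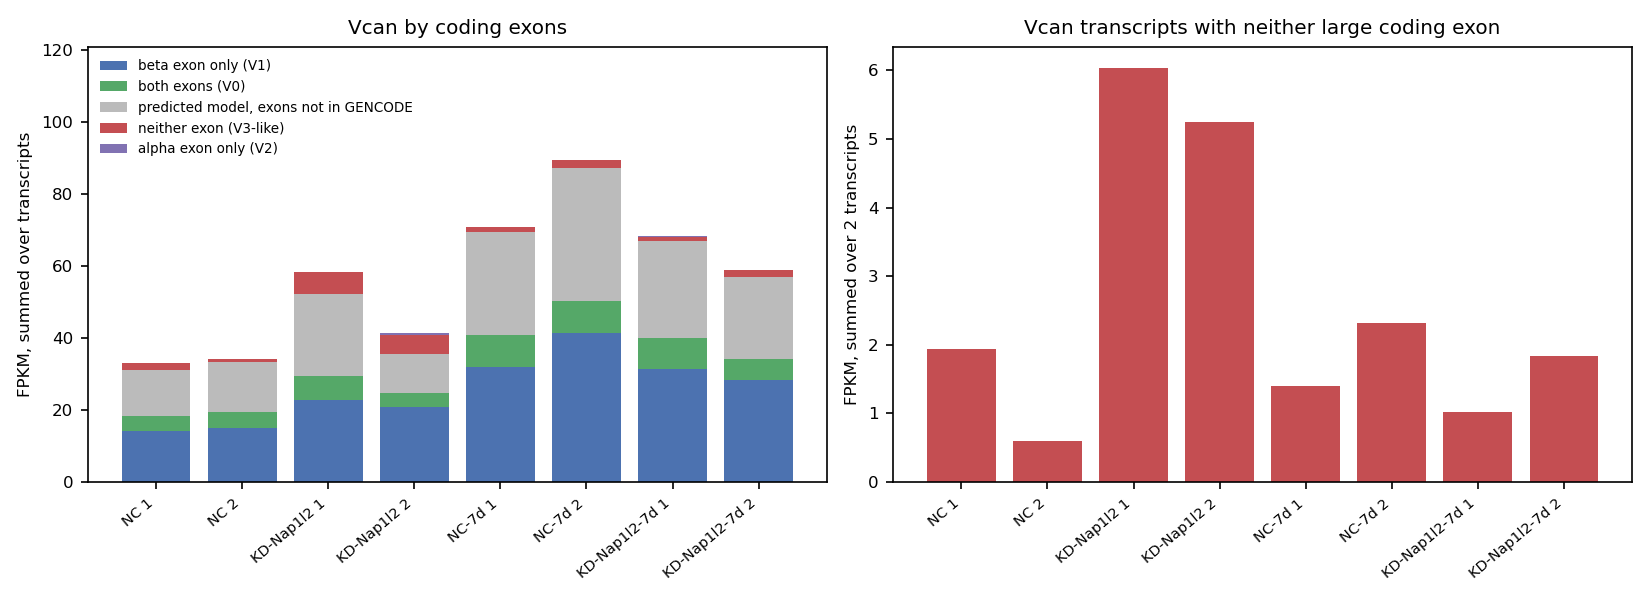
Left, FPKM of Vcan (vertical axis) in each library (horizontal axis), stacked by which large coding exons the transcripts hold; right, the same axes for the transcripts with neither exon alone. V1 was the largest matched form in every library, and the forms with neither exon reached 6.04 and 5.25 FPKM in the KD-Nap1l2 libraries and at most 2.32 in the others.

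Acan and Hapln1, the pair that with hyaluronan makes the aggregates of hyaline cartilage, were close to absent. Acan (chr7:79053226-79115099, plus strand) had 1 and 0 counts in NC, 0 and 1 in KD-Nap1l2, 0 and 0 in NC-7d, and 2 and 4 in KD-Nap1l2-7d. Hapln1 (chr13:89540529-89611832, plus strand) had 0 and 0, 1 and 1, 0 and 0, and 2 and 0 counts in the same order. No group mean exceeded 3 counts, no fold is given, and neither gene passed the filter on low counts. A count of 0 allows a level of up to 0.154 to 0.176 CPM (counts scaled to a common library size) in these libraries, for counting error only.

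Their relatives were low as well. Hapln3, whose gene starts 1.93 kb beyond the end of Acan, had 0.04 to 0.24 FPKM, and Hapln2 had 0.04 to 0.27. Hapln4 was the highest link protein gene, at 0.65 and 0.64 FPKM in NC, 1.39 and 0.97 in KD-Nap1l2, 1.87 and 1.26 in NC-7d, and 3.10 and 2.71 in KD-Nap1l2-7d. It rose over 7 days in the controls (log2 1.26, adjusted p = 0.036, edgeR) and in the knockdown libraries (log2 1.31, adjusted p = 0.0209). Ncan and Bcan, the hyalectans of the nervous system, reached at most 0.05 and 0.07 FPKM.

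The upstream windows of Acan and Vcan are shown because these related genes stood at opposite ends of the range in the same cells. They are the 250 bases before the RefSeq start on GRCm38.p6, at chr7:79052976-79053225 for Acan and chr13:89742513-89742762 for Vcan, which lies inside the RefSeq bounds of the gene, and they are in lower case since neither held the SOX motifs searched above.
Acan: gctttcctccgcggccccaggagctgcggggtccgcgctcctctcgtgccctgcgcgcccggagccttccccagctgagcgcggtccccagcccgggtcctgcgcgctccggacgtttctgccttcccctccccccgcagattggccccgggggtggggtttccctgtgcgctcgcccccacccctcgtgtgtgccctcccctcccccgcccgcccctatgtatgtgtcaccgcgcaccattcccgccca
Vcan: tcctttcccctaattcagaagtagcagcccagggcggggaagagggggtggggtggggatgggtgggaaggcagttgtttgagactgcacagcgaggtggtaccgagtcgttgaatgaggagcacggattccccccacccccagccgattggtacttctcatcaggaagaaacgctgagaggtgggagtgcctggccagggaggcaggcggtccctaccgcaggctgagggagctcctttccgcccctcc
The Acan window had 74.4% GC, above 95.4% of all windows, with 26 CG dinucleotides and 3 matches to the GC box CCGCCC on either strand. The Vcan window had 62.4% GC, 10 CG dinucleotides and 2 such matches. GC boxes were found in 32.7% of all windows, and the median window had 52.4% GC and 6 CG dinucleotides. These letters are a description and were not compared with any binding data.

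Comp, on chr8:70373548-70382066 (plus strand), had the smallest spread over the 8 libraries among the members tested, as the root mean square deviation of its log2 CPM (0.267, beside 0.272 for Sox9). Its counts were 82 and 110 in NC, 108 and 127 in KD-Nap1l2, 105 and 159 in NC-7d, and 90 and 98 in KD-Nap1l2-7d. After normalisation for library size every pair of groups compared was separated, in the closest case by 5.79 CPM in the lower KD-Nap1l2 library against 5.64 CPM in the upper NC library. The log2 fold changes were 0.37 ± 0.26 for KD-Nap1l2 against NC, -0.46 ± 0.26 for KD-Nap1l2-7d against NC-7d, 0.53 ± 0.26 for NC-7d against NC and -0.30 ± 0.26 for KD-Nap1l2-7d against KD-Nap1l2. Of its thrombospondin relatives, Thbs3 was at 3.68 to 6.74 FPKM and Thbs4 at 0 to 0.09.

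Calls were made across all 13470 genes tested, of which 5 were members, at an adjusted p of 0.05 with edgeR. For KD-Nap1l2 against NC no member was called, beside 0.0817% of all genes, and the 5 members did not overlap between groups, all higher in KD-Nap1l2, beside 43.2% of genes. By DESeq2, Sox6 was called in that comparison. For KD-Nap1l2-7d against NC-7d no member was called, beside 0% of genes by edgeR, where 1057 genes had an unadjusted p under 0.05 and DESeq2 called 79. There 3 members (Sox6, Vcan and Comp) were separated, each lower in KD-Nap1l2-7d, beside 42.1%. For NC-7d against NC, Sox5, Sox6 and Vcan were called, all higher, beside 8.21% of genes, and 4 members were separated, beside 57.8%. For KD-Nap1l2-7d against KD-Nap1l2, Sox9 alone was called, lower, beside 14.2%, and all 5 were separated, beside 61.4%. Nothing is read from these counts, since the members were picked with these values known. The comparisons share control libraries, so their values are set side by side and not tested against each other as independent results.

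**Figure D3:**
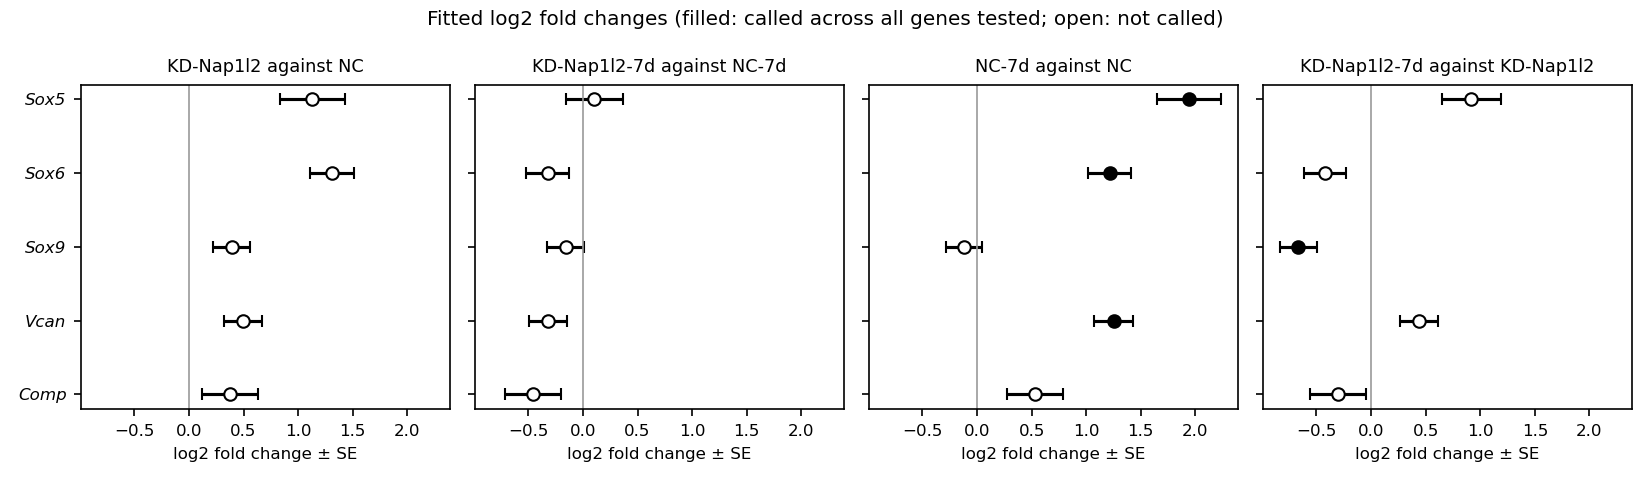
Log2 fold change with its SE (horizontal axes) of the 5 genes that passed the filter on low counts (vertical axis) in 4 comparisons; filled points were called across all genes tested and open points were not. All 5 lay above 0 for KD-Nap1l2 against NC and 4 of 5 below 0 for KD-Nap1l2-7d against NC-7d.

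Some calls changed when 1 library was left out, including libraries outside the comparison. Leaving out NC replicate 1 gave log2 fold changes of 1.76 for Sox5, 1.03 for Sox6 and 1.23 for Vcan for NC-7d against NC. That of Sox9 in the knockdown comparison over time stayed at -0.67 without NC replicate 1 or 2. Without NC replicate 1, none of the 3 members called for NC-7d against NC was called, and the calls over all genes went from 1106 to 118. Sox9 was not called in the knockdown comparison over time without NC replicate 1 or 2, KD-Nap1l2 replicate 1, or KD-Nap1l2-7d replicate 1 or 2. Sox6 was called for KD-Nap1l2 against NC without KD-Nap1l2 replicate 1 or without either NC-7d library.

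Other genes of cartilage moved less evenly. Over 8 lists, 79 of the 112 other genes in the table were tested. For KD-Nap1l2 against NC only Col2a1 was called, which encodes the main collagen of cartilage and is a known target of SOX9. It was at 1.02 and 1.07 FPKM in NC and 6.10 and 6.29 in KD-Nap1l2 (log2 2.56, adjusted p = 0.0478). It stood at 1.87 and 1.30 in NC-7d and 2.13 and 1.10 in KD-Nap1l2-7d. Its call was absent with only the compared libraries fitted and without any one of NC replicate 1 or 2, KD-Nap1l2 replicate 2, or KD-Nap1l2-7d replicate 1 or 2. The median log2 fold change over the 79 genes was 0.25, beside 0.01 over all genes tested.

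Over 7 days in the controls, 3 of the 79 list genes tested were called higher and 7 lower. The same calls over all 13470 genes tested were 651 and 455. The median was -0.10 in the lists. Prg4, which encodes the lubricin of joint surfaces, rose from 0.26 and 0.43 FPKM to 7.56 and 25.1 (log2 5.71, adjusted p = 0.00701). Col11a1, a fibril collagen of cartilage, rose from 2.35 and 2.26 to 10.7 and 4.33 (log2 1.71, adjusted p = 0.0433), a call that was absent in both FPKM fits and with only the compared libraries fitted. Col10a1, the collagen of hypertrophic chondrocytes, fell from 0.61 and 0.49 to 0.02 and 0.12 (log2 -2.95, adjusted p = 0.0369). Epyc and Fmod, small leucine-rich proteoglycans, also fell (log2 -3.85 and -6.07, adjusted p = 0.0217 and 0.0181). The NC level of Fmod differed between libraries, at 11.5 and 1.63 FPKM. Tnfaip6, which modifies hyaluronan, fell from 31.6 and 15.3 to 2.87 and 3.98 (log2 -2.78, adjusted p = 0.0101). Mef2c, a regulator of chondrocyte hypertrophy, fell from 18.9 and 13.1 to 3.16 and 4.42 (adjusted p = 0.00983). Papss2, which makes the sulphate donor for chondroitin sulphate, fell from 10.9 and 11.6 to 3.25 and 6.66 (adjusted p = 0.0335). Adamts15, an aggrecanase relative, fell from 2.13 and 0.83 to 0.17 and 0.32 (adjusted p = 0.0303). These calls were lost without NC replicate 1. Which list genes were called also changed without NC-7d replicate 1, and without a KD-Nap1l2 or KD-Nap1l2-7d library, which are outside this comparison.

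Over 7 days in the knockdown libraries, 3 of the 79 list genes tested were called higher and 25 lower. The same calls over all 13470 genes tested were 921 and 991. The median was -0.34 in the lists and -0.01 over all genes. Prg4 rose from 0.15 and 0.65 to 27.2 and 36.9 FPKM (log2 6.29, adjusted p = 0.0034), and Col11a2 rose by 0.72 on the log2 scale (adjusted p = 0.0275). Among the cartilage collagens Col2a1 fell from the levels above (log2 -1.94, adjusted p = 0.00783), and Col27a1 fell from 10.8 and 9.70 to 2.66 and 3.24 (log2 -1.83, adjusted p = 0.00105). Cnmd, the anti-angiogenic chondromodulin, fell from 25.1 and 12 to 0.08 and 0.32 (log2 -6.51, adjusted p = 0.00541). Epyc (log2 -7.08, adjusted p = 0.00737) and Fmod (log2 -6.95, adjusted p = 0.00948) fell further than Cnmd. Col10a1 (log2 -4.28, adjusted p = 0.0111) and Tnfaip6 (log2 -2.47, adjusted p = 0.0118) fell as well. Mef2c (log2 -2.24, adjusted p = 0.00638) and Adamts15 (log2 -2.22, adjusted p = 0.049) were also lower. Papss2 fell too (log2 -1.35, adjusted p = 0.0172), so every list gene called lower in the controls was called lower here. Snai2, a zinc finger repressor, fell from 153 and 96.1 to 39.5 and 41.6 (log2 -1.60, adjusted p = 0.012), and Fgfr3, a brake on chondrocyte division, by 2.50 on the log2 scale (adjusted p = 0.0171).

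Enzymes that make the chains of these proteoglycans, and proteoglycan proteases, were among the genes called lower. Of 22 chondroitin sulphate synthesis genes tested 7 were called lower, with a list median of -0.22. Of all genes tested 14.2% were called in either direction. Chst7, a sulphotransferase, went from 10.8 and 14.7 to 4.62 and 4.42 FPKM (log2 -1.48, adjusted p = 0.00808). Ugdh, which makes glucuronic acid for the chains, went from 131 and 256 to 65.3 and 77.5 (log2 -1.45, adjusted p = 0.0232). Of 8 proteoglycan proteases tested 3 were called lower. Adamts5, an aggrecanase that also cuts versican, went from 42.9 and 52.5 to 20.9 and 20.4 (log2 -1.21, adjusted p = 0.00441), and Adamts12, a relative for which COMP is a known substrate, from 7.68 and 7.46 to 3.26 and 3.04 (log2 -1.26, adjusted p = 0.00418). Of 11 hyaluronan genes tested 3 were called lower. Has2, the main hyaluronan synthase of mesenchyme, was at 9.65 and 6.36 against 6.64 and 5.45 FPKM and was not called. Without KD-Nap1l2-7d replicate 1 the 28 calls in these lists became 4, and without replicate 2 they became 5. Both leave-outs retained Col2a1, Col27a1, Adamts12 and Prg4.

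**Figure D4:**
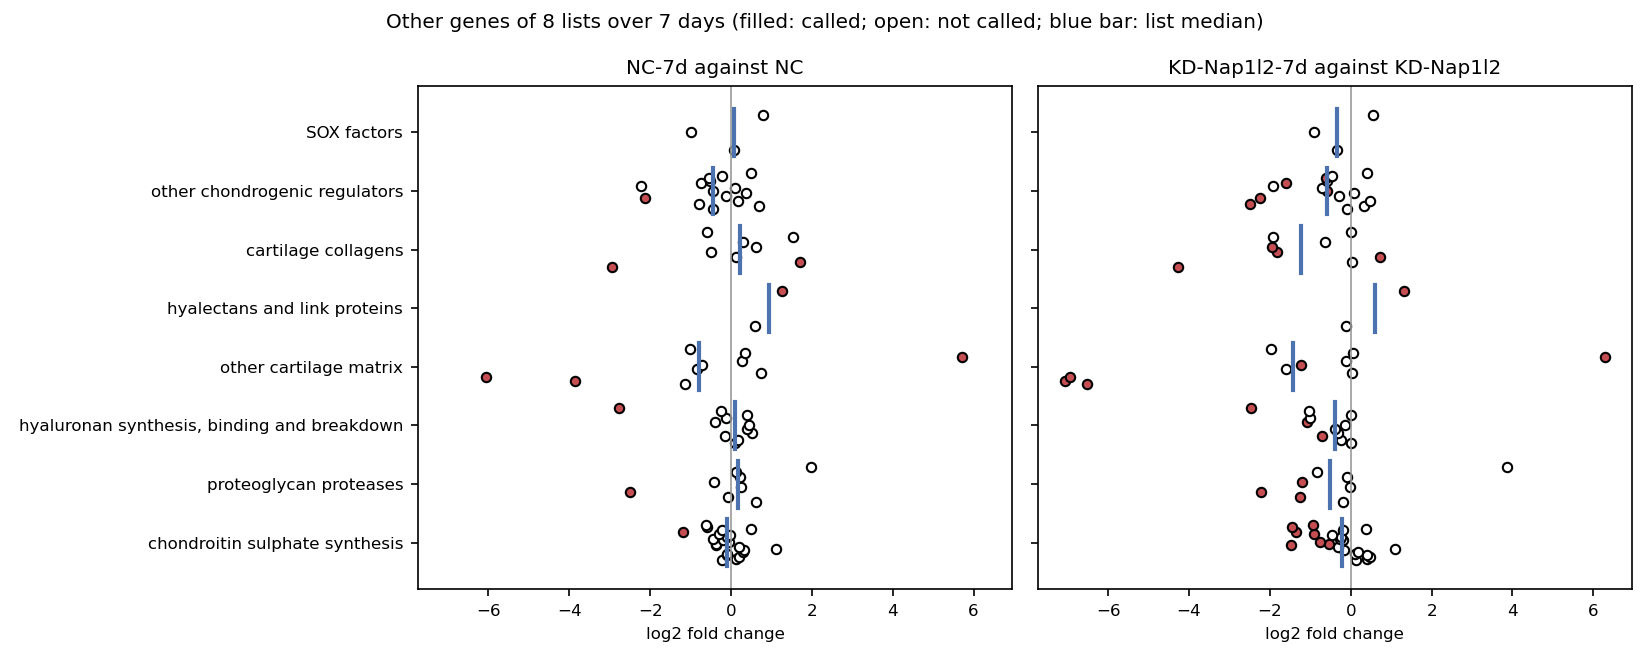
Log2 fold change (horizontal axes) of the 79 tested genes of 8 lists (vertical axis) over 7 days in control (left) and knockdown (right) libraries; filled points were called, open points were not, and blue bars are list medians. In the left panel 10 genes were called and in the right panel 28, of which 25 lay below 0.

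For each member tested, the 3 genes with the most similar profile were found by the root mean square difference of their centred log2 CPM over the 8 libraries. Vcan was nearest to Carmil2 (0.0895), Sinhcaf (0.125) and Ddhd1 (0.146), where its own deviation from its mean was 0.485. Sox9 was nearest to Mapkbp1, Ctnnbip1 and Cep131 (0.0939 to 0.102, own deviation 0.272). Sox5 was nearest to Dusp14, Colca2 and Irak3 (0.198 to 0.210, own deviation 0.788), and Sox6 to Tril, Klhdc8a and Acvr1b (0.225 to 0.234, own deviation 0.528). Comp was nearest to Snx15, Lrrc45 and Sipa1l1 (0.115 to 0.123, own deviation 0.267). No member was among the nearest genes of another.

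The transcripts of the SOX genes could not be resolved as those of Vcan were. Sox5 was split over 21 listed transcripts, of which 2 had a mean of 5 or more counts and none was above 0 in every library. Sox6 was split over 14, of which 6 reached that mean and none was above 0 in every library. Sox9 had 1 listed transcript. GENCODE also places 5 genes on the opposite strand that overlap the bounds of Sox5 and 3 that overlap those of Sox6, including Sox5os1 and Sox6os. There were 2 for Vcan and 0 for Sox9 and Comp. Whether counting used the strand is not given in the sources used here, and overlap of exons was not examined. Whether reads of those genes entered the counts of Sox5 and Sox6 was therefore not tested.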

How the data were processed

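RNA of 8 C3H10T1/2 samples was extracted with Trizol and sequenced at BGI. The labels' processing notes name BWA, Bowtie2 and RSEM, with no versions, and the build GRCm38.p6. The authors deposited, per gene and per transcript, estimated counts (41.1% of genes hold a value that is not whole) and values that behave as FPKM, identified from the values. Deposited tables of the authors' own fold changes and p-values were not used.

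Groups followed the sample titles. Estimated counts were rounded. Genes passing filterByExpr (13470 of 18605) were fitted over all 8 libraries with TMM and the quasi-likelihood test of edgeR 4.0.16 in R 4.3.3, with Benjamini-Hochberg adjustment over all genes tested and a threshold of 0.05. FPKM were only described or, as an alternative, tested with limma 3.58.1 on log2(FPKM + 1) or log2(FPKM + 0.1). DESeq2 1.42.0 was another alternative. The fit was tested on simulated data. Library totals of 17420284 to 19427359 counts put the floor of 3 counts at 0.154 to 0.176 CPM. The FPKM-based shares of Vcan transcripts and the motif counts were computed in Python 3.11.15, with transcripts matched to GENCODE vM21 and promoters from RefSeq.

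The members, lists and tests were chosen with earlier results of these data known. Named genes were all members, Nap1l2, the 3 nearest genes of each member, up to 4 called genes per list and comparison by size of change, and relatives, partners or substrates of a member. A fit with the replicate number as a block was an alternative, since nothing showed that the numbers pair the samples.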

Additional observations from a re-analysis of the deposited data

Results flagged for a closer look

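Sox6, Vcan and Comp moved in opposite directions before and after induction. Both KD-Nap1l2 libraries were above both NC libraries, and both KD-Nap1l2-7d libraries were below both NC-7d libraries, for each of the 3 genes. The change in the log2 fold change was -1.63 ± 0.28 (SE) for Sox6, -0.83 ± 0.36 for Comp and -0.81 ± 0.25 for Vcan. The difference between the 2 knockdown comparisons was tested with edgeR across all genes. It called 0 genes, or 0% of those tested, with 948 at an unadjusted p under 0.05, and DESeq2 called 98. That 0% is not the share of genes separated in opposite directions, which was not counted. Libraries did not overlap, in either direction, for 43.2% of genes tested before induction and 42.1% after it. Sox6 was called by DESeq2. These 3 genes were noticed for this pattern, so the values are a description.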

How the results depend on the processing

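For KD-Nap1l2 against NC, 11 genes were called, with 460 by DESeq2, 160 without the filter, 33 and 18 by limma on log2(FPKM + 1) and log2(FPKM + 0.1), 4 with a replicate block, 0 with only the compared libraries and 0 to 576 leaving out 1 library (lowest when the second NC or second KD-Nap1l2 library was dropped, highest when the first KD-Nap1l2 library was), 149 and 150 without an NC-7d library and 2 to 3 without NC replicate 1 or a KD-Nap1l2-7d library. Members called were 0, with 1 (Sox6) by DESeq2 or without the filter and 0 to 1 leaving out 1 library. For KD-Nap1l2-7d against NC-7d, 0 genes became 79 by DESeq2 and 0 to 1 leaving out 1 library. For NC-7d against NC, 1106 genes were called, with 1555 by DESeq2, and leaving out 1 library gave 118 (without NC replicate 1) to 1500, with 527 to 589 when NC replicate 2, NC-7d replicate 1 or a KD-Nap1l2-7d library was left out, and members from 0 (without NC replicate 1) to 3. For KD-Nap1l2-7d against KD-Nap1l2, 1912 genes were called, with 2389 by DESeq2, and leaving out 1 library gave 310 (without KD-Nap1l2-7d replicate 1) to 2239, with 335 when its second induced library was dropped and 1213 when its second uninduced one was, and the 1 member called, Sox9, became 0 with the replicate block, with only the compared libraries and with both FPKM fits, and ran from 0 to 1 leaving out 1 library. For the difference between the 2 knockdown contrasts, 0 genes became 98 by DESeq2, 1 without the filter and 0 to 18 (the highest when the first NC-7d library was dropped), and 1 member (Sox6) was called by DESeq2. The cause of these shifts was not tested, except that leaving out libraries or fitting only the compared ones leaves fewer samples. The replicate numbers were not shown to pair samples (correlations of deviations from -0.061 to 0.10). With the block the Col2a1 call for KD-Nap1l2 against NC and the Col11a1 call for NC-7d against NC were lost. The block also took the genes called for KD-Nap1l2 against NC from 11 to 4. It lost the Sox9 call for KD-Nap1l2-7d against KD-Nap1l2. Apart from these, the counts of genes, members and list genes called stayed within 1.5 times.

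With at most 4 counts per library, Acan and Hapln1 allow no comparison. The sign of the uncalled Sox9 values for KD-Nap1l2-7d against NC-7d and NC-7d against NC turned positive (0.03 when the second NC-7d library was left out, and 0.05 when the first was).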

Other observations

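Runx2, the bone regulator, was one of 5 genes of the chondrogenic regulators list called lower over 7 days in the knockdown libraries, with Fgfr3, Mef2c, Snai2 and Twist1. It was outside the naming rule and chosen after its values were seen. In the knockdown libraries its counts went from 1352 and 1604 at 0 days to 974 and 980 at 7 days (log2 -0.58, adjusted p = 0.0334 with edgeR). Its FPKM were 15.2 and 15.6 at 0 days and 15.1 and 16.0 at 7 days, so a gene called lower by counts was level by FPKM. The controls also differed by measure. There Runx2 was lower at 7 days by counts but not called (log2 -0.46, adjusted p = 0.0924 with edgeR). Its FPKM in the controls were 11.5 and 10.5 at 0 days and 13.2 and 14.4 at 7 days.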
